A study of Mus musculus with 22 samples.

Results

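The genes described here are those of the mouse major histocompatibility complex (MHC) and of antigen presentation, in whole testes with and without MLX. They were chosen by name alone: every row of the count table whose symbol starts with H2-, and *B2m*, *Tap1*, *Tap2*, *Tapbp*, *Tapbpl*, *Cd74*, *Ciita* and *Nlrc5*. The rule found 37 of the 17931 gene symbols in the table. By role they are 3 classical class I chains, 17 nonclassical class I genes, 4 peptide loading genes, 10 class II genes, 2 transactivators and 1 enzyme gene, and 32 of the 37 lie on chromosome 17.

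MLX is a transcription factor of the MYC-MAX network that binds DNA as a dimer with partner proteins. RNA of whole testes was sequenced from 3 wild-type (WT) males, which were verified fertile breeders, and 3 constitutive MLX KO males. In MLX KO mice exons 3 to 6 of *Mlx*, which encode the dimerization and DNA-binding region, were deleted in all tissues. The deletion was made in 129S4 AK7 embryonic stem cells and with a Meox2-Cre deleter allele that was later crossed out, and the conditional Cre lines of the study play no role here. All 6 males were 7 months old and untreated, WT and MLX KO males were littermates, and the sample names pair them as replicates 1 to 3. The methods describe 2 mouse lines from separate stem cell clones and do not say which line supplied these males.

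MHC class I molecules, made of a heavy chain and beta-2 microglobulin, carry peptides of proteins degraded by the proteasome to the surface of most cells, where cytotoxic T cells read them. Class II molecules carry peptides from endosomes and are made mainly by macrophages, dendritic cells and B cells, where the invariant chain guides them to the peptide. The testis is known as an immune-privileged organ in which meiotic and later germ cells carry little class I and in which interstitial macrophages can carry class II. In bulk RNA from whole testes, fewer cells of a type and less RNA per cell cannot be told apart, and the same holds for more.

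Upstream sequences of 5 genes on which the results turn are shown because class I and class II genes are known for different control elements just before their start. Each run is the 180 bases that end 1 base before the start of a curated RefSeq transcript on GRCm38.p6 (mm10), read 5′ to 3′ on the strand of the gene. *H2-K1* has curated starts at 34000347, used here, and 34000333, while its 9 predicted transcripts start at 34000619, so its run lies inside the gene as those transcripts draw it. The other 4 genes have 1 start each. *H2-K1* is chr17:34000348-34000527 on the minus strand, *H2-D1* is chr17:35262914-35263093 on the plus strand and *B2m* is chr2:122147507-122147686 on the plus strand. *H2-Aa* is chr17:34287824-34288003 on the minus strand and *H2-Eb1* is chr17:34305687-34305866 on the plus strand. Capitals mark letters of known elements, searched on both strands.
H2-K1: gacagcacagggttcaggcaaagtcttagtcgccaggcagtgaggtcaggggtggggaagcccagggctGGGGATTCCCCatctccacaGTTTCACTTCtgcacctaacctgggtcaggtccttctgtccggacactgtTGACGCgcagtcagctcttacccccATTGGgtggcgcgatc
H2-D1: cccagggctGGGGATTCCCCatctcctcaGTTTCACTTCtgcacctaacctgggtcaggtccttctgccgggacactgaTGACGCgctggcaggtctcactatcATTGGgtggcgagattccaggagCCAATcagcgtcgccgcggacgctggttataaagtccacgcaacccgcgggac
B2m: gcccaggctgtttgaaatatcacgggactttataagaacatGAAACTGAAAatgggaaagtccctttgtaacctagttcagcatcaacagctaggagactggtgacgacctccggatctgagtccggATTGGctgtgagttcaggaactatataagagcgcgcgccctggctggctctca
H2-Aa: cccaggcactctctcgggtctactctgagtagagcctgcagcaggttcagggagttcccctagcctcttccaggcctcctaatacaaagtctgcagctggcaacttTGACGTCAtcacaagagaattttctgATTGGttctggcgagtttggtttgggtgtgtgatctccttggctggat
H2-Eb1: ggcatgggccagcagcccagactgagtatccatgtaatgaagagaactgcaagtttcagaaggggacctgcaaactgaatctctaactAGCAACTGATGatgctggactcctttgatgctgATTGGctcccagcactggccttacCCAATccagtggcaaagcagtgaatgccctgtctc

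In *H2-K1* and *H2-D1*, classical class I heavy chain genes, the capitals are in order a kappa B site of 11 letters, an interferon element of 10 letters, the core of the site alpha (TGACGC) and an inverted Y box, which is CCAAT read on the other strand. *H2-D1* has a further Y box as written, at bases -53 to -49 from its start. The interferon element, the site alpha core and the inverted Y box started 20, 70 and 95 bases after the start of the kappa B site in both genes, and 89 of 100 bases from the kappa B site to the Y box were identical. In *B2m*, the light chain gene, the first capitals are an interferon element of the general form, GAAA, any 2 bases and GAAA. In *H2-Aa*, a class II alpha chain gene, the capitals are the palindrome TGACGTCA and an inverted Y box. In *H2-Eb1*, a class II beta chain gene, they are the core of an X1 box (AGCAAC, any base, GATG) and a Y box on either strand.

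The same letters were counted in windows from 250 bases before to 50 bases after each start, which were at hand for 28 of the 37 genes. The genes with no window were *Ciita*, *Tap2*, *H2-Bl*, *Cd74*, *H2-Ab1*, *H2-Q1*, *H2-T24*, *Nlrc5* and *Tapbpl*. The 28 were counted by gene and the shares of all genes by window, and a gene with several starts can have several windows, so the 2 are unlike units. CCAAT was in the windows of 25 of the 28 genes and in 37.4% of 32851 windows of all genes. The kappa B letters were in 2 of the 28, *H2-K1* and *H2-D1*, and in 0.0304% of all windows. The 10 letters of the class I interferon element were in 5, *H2-K1*, *H2-D1*, *H2-Q4*, *H2-Q10* and *H2-M3*, and in 0.14% of all windows. TGACGC was in 4, *H2-K1*, *H2-D1*, *H2-Q4* and *H2-M3*, and in 7.4% of all windows. The general interferon form was in 3, *B2m*, *H2-T22* and *H2-T23* (3.44% of all windows), the X1 core in *H2-Eb1* and *H2-Eb2* (0.07%) and TGACGTCA in *H2-Aa* (1.79%). CACGTG, the E-box of MLX and MAX dimers, was in the windows of 0 of the 28 genes and in 7.15% of all windows. This says only that these letters are not in these windows. The letters were chosen with these sequences in view, TGACGC and TGACGTCA share their first 5 letters, and a match is a description of sequence and not of binding.

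The libraries held between 16674678 and 19742726 counts, and the factors that correct for composition (TMM) lay between 0.943 and 0.961 in WT and between 1.02 and 1.07 in MLX KO. Levels are given as CPM, counts scaled to a common size of the library after TMM adjustment, changes as the log2 fold change (LFC) of MLX KO relative to WT with its standard error (SE), and adjusted p-values are those of the quasi-likelihood test in edgeR, adjusted by Benjamini and Hochberg over 14640 genes. Between the genotypes, 6649 of these genes (45.4%) had an adjusted p under 0.05, so a change by itself was frequent. *Mlx* was counted over the whole gene, including an exon that the deletion left in place, with 94 to 128 counts in every library (LFC -0.18, edgeR adjusted p = 0.326), and does not check the genotype labels. Libraries of one genotype differed most where MLX KO replicate 1 (KO1) was set against KO2 or KO3, so values without KO1 are given beside the results, and calls that end without it are named. The 6 germ cell markers lay between 152 and 5362 CPM in WT testes, so the labelled tissue was there, and 5 of the 6 were lower in MLX KO testes, while all 6 Sertoli and all 6 Leydig cell markers were higher.

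Transcripts of antigen presentation were mostly higher in MLX KO testes, and the increase reached class I chains, the peptide transporter, and class II chains with their invariant chain. Of the 37 genes, 20 had enough counts for testing, 12 rose, 1 (*Nlrc5*) fell and 7 did not pass the test. Over all genes tested, 24.8% were higher and 20.6% were lower. Each of the 12 that rose had at least 1.11 CPM in every WT library, was higher in 3 of 3 pairs, and lay higher in every MLX KO library than in every WT library, which held for 30.3% of all genes tested. For *Nlrc5* every MLX KO library lay below every WT library (25.9% of all genes tested). The median LFC was 0.69 over the 20 genes (1.13, 0.47 and 0.65 in pairs 1, 2 and 3) and 0.03 over all genes tested. Without KO1, 11 of the 20 were higher and 1 was lower, with a median LFC of 0.48, and 27.0% of all genes tested were higher. The gene lost was *H2-Q4*.

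**Figure D1:**
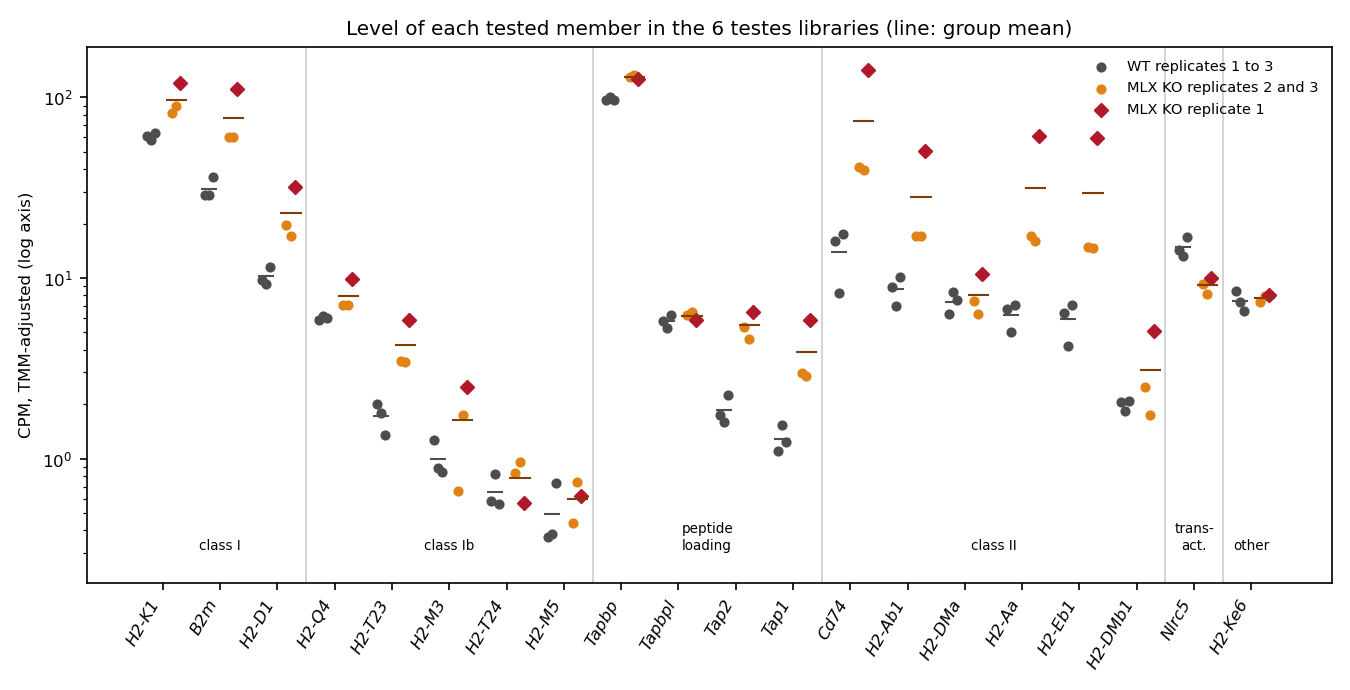
The vertical axis gives CPM on a log axis for each of the 20 genes tested, grouped by role along the horizontal axis, with 1 point per library and a line at each group mean. The class II points of MLX KO replicate 1 stand far above those of replicates 2 and 3, as for *Cd74* at 141 against 41.3 and 39.4 CPM, and the *Nlrc5* points of MLX KO lie below those of WT.

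Classical class I chains rose as a group, 3 of 3. *B2m*, whose product is the light chain of every class I molecule, had 28.9, 28.7 and 36.0 CPM in WT replicates 1, 2 and 3 (WT1, WT2 and WT3) and 111, 60.3 and 60.2 CPM in KO1, KO2 and KO3. The MLX KO libraries all lay above the WT libraries, and KO1 stood well above KO2 and KO3, which hardly differed. From 31.2 ± 4.19 to 77.2 ± 29.3 CPM (SD, n = 3 each), *B2m* had an LFC of 1.31 (SE 0.21, edgeR adjusted p = 0.000568), and of 0.95 without KO1. *B2m* lies on chromosome 2, from 122147687 to 122153082 in mm10, apart from the MHC itself.

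The heavy chain genes followed with smaller changes. *H2-D1* had 9.75, 9.28 and 11.6 CPM in WT and 31.8, 19.7 and 17.1 CPM in MLX KO testes, and its LFC was 1.16 (SE 0.20, edgeR adjusted p = 0.000937; 0.85 without KO1). *H2-K1* was the more abundant heavy chain row, with 61.1, 57.8 and 63.1 CPM in WT and 119, 82.1 and 89.1 CPM in MLX KO testes, and its LFC was 0.67 (SE 0.11, edgeR adjusted p = 0.000761; 0.50 without KO1). For both heavy chains KO1 was the highest library and the groups did not overlap. Reads of class I heavy chains can be split between near-identical rows: of all 50-base stretches in their transcripts, 9.63% for *H2-K1*, 12.8% for *H2-D1* and 0% for *B2m* also occur in another gene.

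Peptide loading genes rose in 3 of 4. *Tap1* and *Tap2* encode the subunits of the transporter that moves peptides into the endoplasmic reticulum. *Tap1* had 1.11, 1.53 and 1.24 CPM in WT and 5.83, 2.99 and 2.86 CPM in MLX KO testes, and its LFC was 1.60 (SE 0.31, edgeR adjusted p = 0.00172; 1.19 without KO1). *Tap2* had 1.74, 1.59 and 2.26 CPM in WT and 6.45, 5.37 and 4.61 CPM in MLX KO testes, and its LFC was 1.55 (SE 0.20, edgeR adjusted p = 0.000146; 1.42 without KO1). Transcripts of both were thus scarce in WT testes and without overlap between the groups, and KO1 exceeded the others less for *Tap2* than for *Tap1*.

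*Tapbp*, which encodes the chaperone tapasin, was the most even of the genes that rose. It had 96.3, 99.7 and 96.7 CPM in WT and 126, 129 and 134 CPM in MLX KO testes, and its LFC was 0.41 (SE 0.05, edgeR adjusted p = 6.87e-05; 0.43 without KO1). Of the 12 genes that rose, it was the exception in which KO1 was not the highest library. An antisense gene, *Gm19412*, overlaps 24.9% of its exon bases, and whether the counting used strand is not given in the sources used here. The same limit holds for *Tap2*, where *Gm15821* and *Gm20496* on the opposite strand overlap 14.1% and 4.36% of exon bases. It also holds for *H2-Q4*, where *Gm11131* overlaps 19.1%. *Tapbpl*, which encodes a related peptide editor, had 5.80, 5.28 and 6.26 CPM in WT and 5.83, 6.20 and 6.51 CPM in MLX KO testes, with overlapping groups (LFC 0.09, SE 0.13, edgeR adjusted p = 0.579).

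Most rows of nonclassical class I genes held few counts in these testes. Of 17 such rows, 5 had enough counts for testing, *H2-T23* and *H2-Q4* rose, and *H2-M3*, *H2-T24* and *H2-M5* did not pass the test. *H2-T23*, which encodes Qa-1, a ligand of receptors on natural killer cells, had 2.00, 1.78 and 1.35 CPM in WT and 5.83, 3.49 and 3.44 CPM in MLX KO testes (LFC 1.31, SE 0.26, edgeR adjusted p = 0.00186; 1.01 without KO1). *H2-Q4* had 5.85, 6.17 and 5.98 CPM in WT and 9.85, 7.08 and 7.04 CPM in MLX KO testes (LFC 0.42, SE 0.15, edgeR adjusted p = 0.0418). The groups did not overlap for either gene, but the call for *H2-Q4* was lost without KO1 (LFC 0.24, edgeR adjusted p = 0.141) and without WT1, WT2 or WT3 (LFC 0.40, 0.43 and 0.41, edgeR adjusted p = 0.103, 0.0848 and 0.0885).

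*H2-M3*, which presents formylated peptides of bacteria and mitochondria, had 1.27, 0.890 and 0.846 CPM in WT and 2.48, 0.664 and 1.75 CPM in MLX KO testes (LFC 0.70, SE 0.41, edgeR adjusted p = 0.185). Its MLX KO libraries lay on either side of the WT libraries, and without KO2, the lowest of them, it passed the test (LFC 1.07, edgeR adjusted p = 0.0207). *H2-T24* (LFC 0.26, SE 0.33, edgeR adjusted p = 0.550) and *H2-M5* (LFC 0.28, SE 0.40, edgeR adjusted p = 0.596) had between 6 and 18 counts in each library, which leaves changes of this size undetectable. The other 12 nonclassical rows held at most 5 counts in any library.

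Because 21.8% of the 50-base stretches of *H2-Q4* and 13.6% of those of *H2-T23* also occur in other genes, the rows of each family were also summed. The H2-Q rows together had 114, 102 and 110 counts in WT and 194, 134 and 142 counts in MLX KO testes (LFC 0.42, SE 0.14, edgeR adjusted p = 0.0319; 0.27 and adjusted p = 0.102 without KO1). The H2-T rows together had 52, 45 and 38 counts in WT and 126, 81 and 89 counts in MLX KO testes (LFC 1.02, SE 0.20, edgeR adjusted p = 0.00168; 0.84 and adjusted p = 0.00330 without KO1). The sums moved in the direction of their leading rows, and that of the H2-Q rows was also no longer past the threshold without WT1, WT2 or WT3 (LFC 0.39, 0.45 and 0.41, edgeR adjusted p = 0.0900, 0.0642 and 0.0727).

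Class II chains and their invariant chain were higher in MLX KO testes, and how much higher depended on KO1. With KO1 the LFCs of *Cd74*, *H2-Aa* and *H2-Eb1* exceeded those of the other 17 of the 20 genes tested, and without it *Tap2* (1.42) exceeded the 3 class II chain genes. Of 10 class II genes, 6 had enough counts for testing and 4 rose: the invariant chain *Cd74*, both chains of the I-A molecule, *H2-Aa* and *H2-Ab1*, and the beta chain of the I-E molecule, *H2-Eb1*. *Cd74* had 16.1, 8.27 and 17.4 CPM in WT and 141, 41.3 and 39.4 CPM in MLX KO testes, from 13.9 ± 4.94 to 73.9 ± 58.1 CPM (SD, n = 3 each). Its LFC was 2.40 (SE 0.46, edgeR adjusted p = 0.00176) and 1.52 without KO1. Every MLX KO library exceeded every WT library, and KO1 held 3.49 times the mean of KO2 and KO3.

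The class II chains repeated this pattern. *H2-Aa* had 6.70, 5.02 and 7.05 CPM in WT and 61.2, 17.1 and 16.0 CPM in MLX KO testes, and its LFC was 2.32 (SE 0.47, edgeR adjusted p = 0.00234; 1.40 without KO1). *H2-Eb1* had 6.43, 4.20 and 7.10 CPM in WT and 59.4, 14.8 and 14.6 CPM in MLX KO testes, and its LFC was 2.32 (SE 0.51, edgeR adjusted p = 0.00364; 1.31 without KO1). *H2-Ab1* had 8.96, 6.99 and 10.2 CPM in WT and 50.3, 17.1 and 16.99 CPM in MLX KO testes, and its LFC was 1.69 (SE 0.38, edgeR adjusted p = 0.00404; 0.97 without KO1). In each of the 4 genes WT2 was the lowest library, KO1 the highest, and KO2 and KO3 lay close together above all WT libraries. All 4 remained past the threshold without KO1, with smaller SEs, at LFCs between 0.97 and 1.52. No 50-base stretch of *Cd74*, *H2-Ab1* or *H2-Eb1* occurs in another gene, and 0.488% of those of *H2-Aa* do.

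The genes for peptide exchange on class II behaved differently in KO2 and KO3. *H2-DMa* and *H2-DMb1* encode the chains of H2-DM, which exchanges the invariant chain fragment for peptide. *H2-DMa* had 6.33, 8.33 and 7.56 CPM in WT and 10.6, 7.41 and 6.30 CPM in MLX KO testes (LFC 0.14, SE 0.19, edgeR adjusted p = 0.579; -0.10 without KO1). *H2-DMb1* had 2.06, 1.84 and 2.09 CPM in WT and 5.06, 2.49 and 1.75 CPM in MLX KO testes (LFC 0.63, SE 0.34, edgeR adjusted p = 0.150; 0.08 without KO1). Neither passed the test: KO1 was above all WT libraries for both, and KO3 was below all WT libraries for both. Without KO3, *H2-DMb1* passed the test (LFC 0.93, edgeR adjusted p = 0.0317). The difference between these genes and the class II chains in their change was not tested. Reads can be shared between *H2-DMb1* and its paralog *H2-DMb2*, which have 22.7% of the 50-base stretches of *H2-DMb1* in common, and the exons of *H2-DMa* overlap those of the neighbouring *Brd2* on the other strand over 10.4% of their bases. *H2-Oa* and *H2-Ob*, whose products inhibit H2-DM, were too scarce for testing, with counts of 0, 1 and 0 (WT) against 1, 1 and 3 (MLX KO) for *H2-Oa* and of 2, 0 and 1 against 7, 6 and 3 for *H2-Ob*. *H2-DMb2* and *H2-Eb2* held at most 2 counts in any library.

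**Figure D2:**
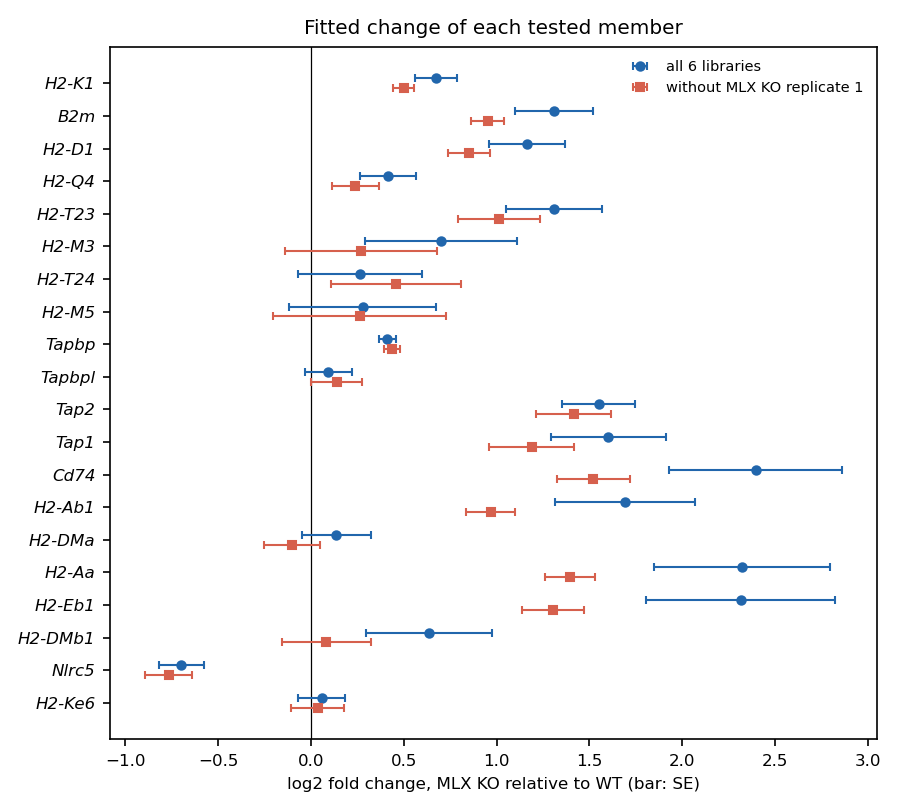
The horizontal axis gives the LFC of MLX KO relative to WT, with bars of 1 SE, for each of the 20 genes tested over all 6 libraries (circles) and without MLX KO replicate 1 (squares). The 4 class II genes that rose move the most between the fits, as for *Cd74* from 2.40 to 1.52, while *Tapbp* stays at 0.41 and 0.43.

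Of the 2 transactivators, *Nlrc5* fell and *Ciita* had too few counts for testing. NLRC5 is the known transactivator of class I genes and CIITA that of class II genes. *Nlrc5* fell, from 14.3, 13.2 and 16.8 CPM in WT to 9.96, 9.24 and 8.10 CPM in MLX KO testes (LFC -0.70, SE 0.12, edgeR adjusted p = 0.000857; -0.77 without KO1). Its groups did not overlap, its change was lower in 3 of 3 pairs, and KO1 was not the library farthest from WT. Thus the class I chains and the transporter genes were higher in the same libraries in which *Nlrc5* was lower.

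*Ciita* did not pass edgeR's filter, with 6, 2 and 4 counts in WT and 53, 11 and 9 counts in MLX KO testes. Every MLX KO library held more than every WT library, and KO1 held several times the count of KO2 or KO3, as it did for the class II chains. Fitted without a filter on low counts, *Ciita* had an LFC of 2.46 (SE 0.69, edgeR adjusted p = 0.0121). Without a filter and without KO1 its LFC was 1.22 (edgeR adjusted p = 0.101), so the call rested on KO1. Exons of *Dexi* overlap 3.45% of the exon bases of *Ciita* on the opposite strand.

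*H2-Ke6* carries the prefix of the MHC for its position and encodes a hydroxysteroid dehydrogenase rather than an antigen presenting molecule. It had 8.49, 7.31 and 6.60 CPM in WT and 8.05, 7.36 and 7.94 CPM in MLX KO testes, with overlapping groups (LFC 0.06, SE 0.13, edgeR adjusted p = 0.735). A processed transcript, *Gm20427*, shares 86.4% of its exon bases on the same strand, so its count is uncertain.

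On a scale per length (RPKM, the CPM per kilobase of exon), *B2m* ranked first in both genotypes, at 36.3 in WT and 89.7 in MLX KO testes. In WT testes *Tapbp* at 26.9, *H2-K1* at 20.6 and *Cd74* at 8.29 RPKM followed. In MLX KO testes *Cd74* was second at 44.0 RPKM, ahead of *Tapbp* at 35.8 and *H2-K1* at 33.0, and *H2-Eb1* ranked 5 at 15.2 RPKM, from rank 8 at 3.04 in WT. The rise of *Cd74* to second rested on KO1: it had 84.0 RPKM there, but 24.6 and 23.5 in KO2 and KO3, where *Tapbp* had 35.7 and 36.8 and *H2-K1* 27.9 and 30.3 RPKM. Over KO2 and KO3 alone *Cd74* ranked 4, as in WT, and *H2-Eb1* ranked 5 at 7.57 RPKM. *Nlrc5* moved from rank 12 at 1.74 RPKM to rank 17 at 1.07 RPKM. Orders among neighbours that differ by less than the spread of their libraries, such as *H2-Ab1* at 3.39 and *H2-Eb1* at 3.04 RPKM in WT, are no ranking.

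KO1 was the highest of all 6 libraries in 14 of the 20 genes tested and in 11 of the 12 that rose. That held for 10.5% of all genes tested and for 11.1% of all genes that were higher. In 6 of the 20, *H2-Eb1*, *H2-Aa*, *Cd74*, *H2-Ab1*, *H2-DMb1* and *H2-M3*, KO1 was at least 2-fold above the mean of KO2 and KO3, by 4.03, 3.70, 3.49, 2.95, 2.39 and 2.05 times. Of all genes tested, 54 (0.369%) met that condition, and 160 were at least 2-fold lower in KO1 than that mean. Relative to the WT mean, the summed CPM of *H2-Aa*, *H2-Ab1*, *H2-Eb1* and *Cd74* was 8.96 in KO1, 2.60 in KO2 and 2.50 in KO3. The summed class I chains were at 2.57, 1.59 and 1.63, and *Tap1* with *Tap2* at 3.89, 2.65 and 2.37. Class II thus separated KO1 from the other MLX KO testes more than class I did, by 3.52 against 1.60 times the mean of KO2 and KO3, and a single testis carries that difference. Markers of Leydig cells, at 2.19, 2.88 and 2.65 times their WT mean in KO1, KO2 and KO3, and of Sertoli cells, at 1.45, 1.78 and 1.74 times, were lower in KO1 than in KO2 and KO3, and their part in these differences was not tested.

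**Figure D3:**
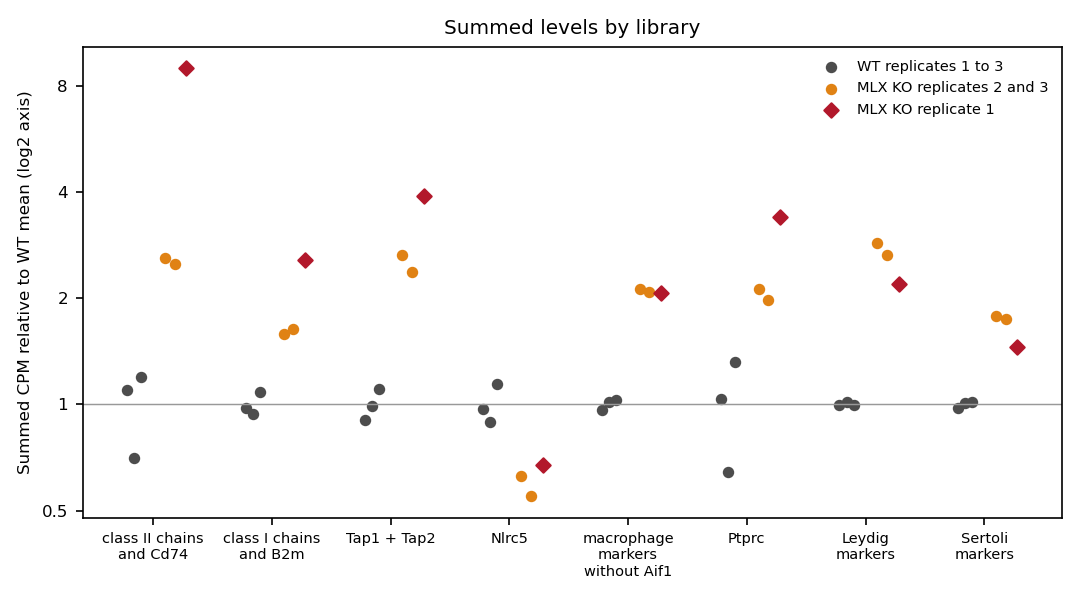
The vertical axis gives the summed CPM of each set of genes relative to its WT mean, on a log2 axis, with 1 point per library. Class II is at 8.96 in MLX KO replicate 1 and near 2.5 in replicates 2 and 3, while macrophage markers without *Aif1* lie between 2.07 and 2.12 in all MLX KO libraries.

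Markers of macrophages were mostly higher in MLX KO testes as well. Of 11 macrophage markers, 10 were higher and *Aif1* was lower in MLX KO testes, with a median LFC of 1.28. Without KO1, 9 were higher, with a median LFC of 1.14, and the call for *Cx3cr1* was lost (LFC 0.41, edgeR adjusted p = 0.197). Their summed level was 458 to 474 CPM in WT and 471 to 511 CPM in MLX KO testes, because *Aif1* (LFC -0.33, edgeR adjusted p = 0.000896) alone made up 377 ± 9.36 CPM of it in WT (SD, n = 3). Without *Aif1*, an alternative chosen after seeing the data, the sum was 86.7 to 92.5 CPM in WT and 187 to 191 CPM in MLX KO testes, and did not set KO1 apart. *Ptprc*, which encodes the leukocyte antigen CD45, had 1.95, 1.21 and 2.48 CPM in WT and 6.40, 3.98 and 3.71 CPM in MLX KO testes (LFC 1.31, SE 0.28, edgeR adjusted p = 0.00300; 1.02 without KO1). *Ptprc* was lowest in WT2 and highest in KO1, as the class II chains were.

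Of markers of other leukocytes, none of the 3 dendritic cell, 2 B cell, 3 T cell and 1 neutrophil markers that had enough counts passed edgeR's test (smallest adjusted p = 0.0943, *Zbtb46*), with 1 at an unadjusted p under 0.05 and 0 past the threshold by DESeq2, and no natural killer cell marker had enough counts. Summed dendritic cell markers were at 19.1 to 20.4 CPM in WT and 18.8 to 19.0 CPM in MLX KO testes, B cell markers at 5.80 to 7.05 and 7.02 to 7.94 CPM, and T cell markers at 3.62 to 6.82 and 3.32 to 8.05 CPM. *Zbtb46* and *Flt3*, with WT means of 13.0 and 5.29 CPM, made up most of the dendritic cell sum. *Pax5*, with a WT mean of 4.85 CPM, made up most of the B cell sum. These 2 sums mainly follow those genes and do not show changes of the scarcer markers. The natural killer cell markers *Ncr1* and *Prf1* and the neutrophil marker *S100a8* had 0 counts in every WT library and at most 1 in MLX KO libraries. Others of these lists were scarce too. In WT against MLX KO testes, counts were 2, 1 and 2 against 10, 3 and 3 for *Nkg7*. They were 4, 4 and 8 against 5, 6 and 7 for *Klrb1c*, and 0, 0 and 1 against 0, 0 and 6 for *S100a9*. Of scarce B cell markers, *Cd79a* had 0, 0 and 1 against 3, 1 and 2, and *Cd79b* 1, 2 and 2 against 7, 4 and 5. *Ms4a1* had 6, 2 and 11 against 3, 8 and 9. *Cd8a*, which marks cytotoxic T cells, had 4, 2 and 5 counts in WT and 28, 2 and 4 counts in MLX KO testes, and was high in KO1 alone. The part of these cells in the changes of the MHC genes was not tested.

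To set these genes against macrophage markers within a library, ratios of summed CPM were compared, which do not depend on scaling between libraries. The sum of all 11 markers was mostly *Aif1*, which was lower in MLX KO testes while the other 10 were higher. The ratio of the 4 class II genes to all 11 macrophage markers was 0.0816, 0.0516 and 0.0910 in WT against 0.610, 0.188 and 0.185 in MLX KO testes. The log2 difference was 1.93 (exact permutation test, two-sided p = 0.1, the smallest p that 3 against 3 allow), with 3 of 3 pairs higher, and 1.36 without KO1. Without *Aif1* the ratio was 0.440, 0.268 and 0.451 in WT against 1.67, 0.472 and 0.464 in MLX KO testes. That log2 difference was 0.93 (exact permutation p = 0.1), and 0.32 without KO1. Relative to *Ptprc* alone it was 0.65 (exact permutation p = 0.1), and 0.29 without KO1. In KO2 and KO3 the class II genes thus exceeded the WT ratios by little once *Aif1* was left out or *Ptprc* was used, and in KO1 by far more.

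For the class I chains the direction depended on the markers. Their ratio to all 11 macrophage markers was 0.213, 0.202 and 0.242 in WT against 0.513, 0.337 and 0.353 in MLX KO testes, a log2 difference of 0.85 (exact permutation test, two-sided p = 0.1, 3 of 3 pairs higher) and of 0.66 without KO1. Without *Aif1* it was 1.15, 1.05 and 1.20 in WT against 1.40, 0.847 and 0.888 in MLX KO testes, a log2 difference of -0.15 (exact permutation p = 0.5) and of -0.38 without KO1. Relative to *Ptprc* alone the log2 difference was -0.42 (exact permutation p = 0.2), and -0.40 without KO1. The positive value was that of the sum made up mostly of *Aif1*. No direction of class I relative to macrophage markers can be given from these libraries.

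Other genes of the pathway were taken from lists. Of 13 genes of the immunoproteasome and the class I pathway, 12 were tested, 8 were higher and 1 was lower, with a median LFC of 0.78. Without KO1, 7 were higher and 1 was lower, with a median LFC of 0.59. *Psmb8*, a catalytic subunit of the immunoproteasome, had 0.685, 0.572 and 0.677 CPM in WT and 4.44, 2.55 and 2.17 CPM in MLX KO testes (LFC 2.23, SE 0.33, edgeR adjusted p = 0.000363; 1.85 without KO1). *Psmb9*, *Psmb10* and the proteasome activator genes *Psme1* and *Psme2* were higher as well, with LFCs of 1.21, 0.63, 1.06 and 0.51. The call for *Psmb9*, which in KO1 was at 2.45 times the mean of KO2 and KO3, was lost without KO1 (LFC 0.64, edgeR adjusted p = 0.161) and with DESeq2 (adjusted p = 0.0714). *Psmb9* lies next to *Tap1* and shares 3.87% of the exon bases of *Tap1* on the opposite strand. *Psme3*, which encodes an activator of another kind, was lower (LFC -0.17, edgeR adjusted p = 0.0153; -0.19 without KO1). *Erap1*, the aminopeptidase that trims peptides, was at 5.11, 5.79 and 7.56 CPM in WT and 11.5, 12.1 and 11.5 CPM in MLX KO testes (LFC 0.92, edgeR adjusted p = 0.000402; 0.94 without KO1).

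The general chaperones of the class I pathway did not pass the test. *Calr*, the most abundant gene of the list per length, had an LFC of -0.05 (edgeR adjusted p = 0.487), *Canx* of 0.07 (edgeR adjusted p = 0.252) and *Pdia3* of -0.04 (edgeR adjusted p = 0.508). These genes serve protein folding in all cells, and were each at 248 CPM or more in every library. With library size alone as scaling, which moved the median LFC of all genes from 0.03 to 0.16, all 3 passed the test: *Calr* at 0.09 (edgeR adjusted p = 0.0419), *Canx* at 0.21 (edgeR adjusted p = 0.00125) and *Pdia3* at 0.10 (edgeR adjusted p = 0.0285). *Psme3* no longer passed it under that scaling (LFC -0.03, edgeR adjusted p = 0.579).

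Of 9 genes of the class II pathway, 7 were tested and 5 were higher, with a median LFC of 0.80. Without KO1 5 were higher as well, with a median LFC of 0.91. *Ctss*, the cathepsin that cuts the invariant chain in antigen presenting cells, had 2.85, 3.88 and 4.96 CPM in WT and 13.2, 10.8 and 11.1 CPM in MLX KO testes (LFC 1.59, SE 0.18, edgeR adjusted p = 5.93e-05; 1.498 without KO1). *Ctsl* was the most abundant of the list per length, with 300, 298 and 281 CPM in WT and 458, 547 and 524 CPM in MLX KO testes (LFC 0.80, edgeR adjusted p = 1.0e-05). *Ctsb*, *Lgmn* and *Ifi30*, a cathepsin, a protease and a reductase of the endosome, had LFCs of 1.21, 1.19 and 0.77. None of the 7 tested genes was 2-fold higher in KO1 than the mean of KO2 and KO3. Of the 5 that were higher, *Ctsl*, *Ctsb* and *Lgmn* had KO1 as their lowest MLX KO library, at 0.856, 0.820 and 0.857 times that mean. *Ctss* had KO1 as its highest library. *March1*, which encodes a ligase that removes class II from the surface, and *Cd86*, a costimulator, did not pass the test (LFC 0.13 and 0.72, edgeR adjusted p = 0.800 and 0.121).

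The factors that bind the shared promoter elements barely differed. Of 7 such genes, all tested, *Nfya* was higher (LFC 0.24, SE 0.08, edgeR adjusted p = 0.0235), and the median LFC was 0.10. Without KO1, *Creb1* was higher as well (LFC 0.34, edgeR adjusted p = 0.00517). The RFX complex genes had LFCs of 0.00 for *Rfx5*, 0.04 for *Rfxap* and 0.10 for *Rfxank*, and none passed the test. *Rfxap* was the most abundant of the list per length.

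Interferon gamma is the best known inducer of both MHC classes. Its own gene, *Ifng*, had 0 counts in 5 libraries and 1 count in KO1, which is under the level that can be told from 0. Of 9 genes of its signal, 8 were tested and 6 were higher, with a median LFC of 0.52. Without KO1 6 were higher as well, with a median LFC of 0.56. *Jak1*, the most abundant of the list per length, had 49.6, 50.3 and 51.7 CPM in WT and 67.8, 82.3 and 82.7 CPM in MLX KO testes (LFC 0.62, SE 0.07, edgeR adjusted p = 9.98e-05; 0.71 without KO1). *Irf8*, a factor of macrophages and dendritic cells, had 5.69, 4.83 and 4.91 CPM in WT and 9.96, 23.8 and 17.2 CPM in MLX KO testes (LFC 1.71, SE 0.26, edgeR adjusted p = 0.000436; 1.99 without KO1), and KO1 was its lowest MLX KO library. *Irf1*, a factor induced by the signal, had 2.69, 3.18 and 2.14 CPM in WT and 6.45, 4.43 and 4.98 CPM in MLX KO testes (LFC 0.99, SE 0.20, edgeR adjusted p = 0.00222; 0.82 without KO1), and was highest in KO1. *Socs1*, an inhibitor of the signal, had an LFC of 0.14 (edgeR adjusted p = 0.487).

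**Figure D4:**
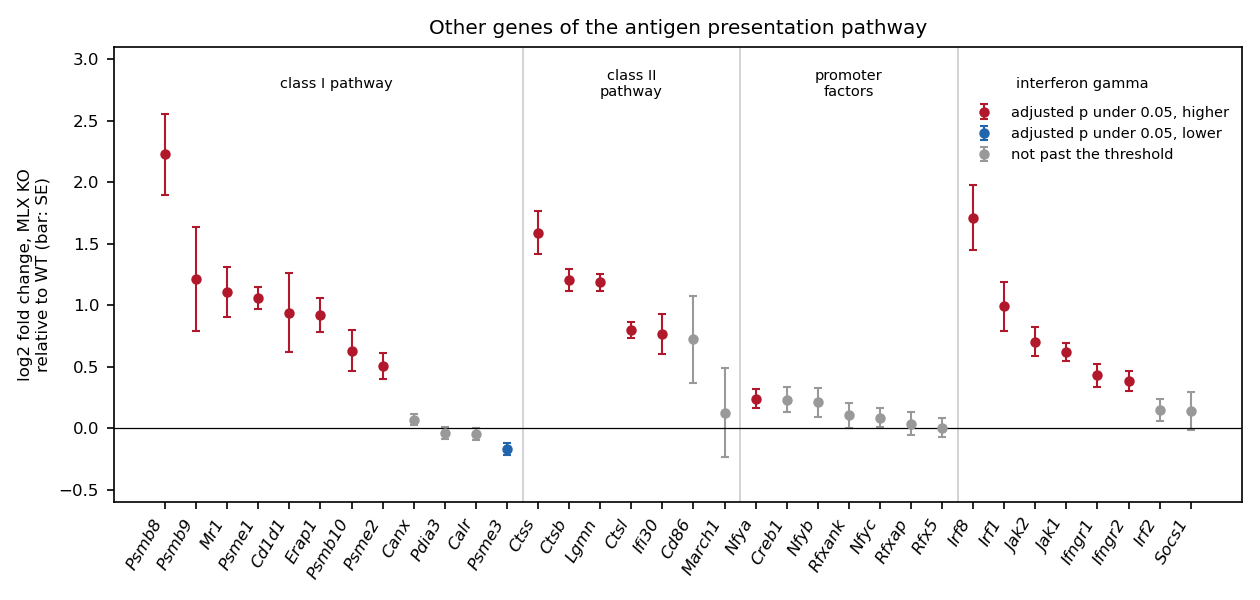
The vertical axis gives the LFC of MLX KO relative to WT, with bars of 1 SE, for the tested genes of 4 lists along the horizontal axis. The highest points are *Psmb8* at 2.23, *Irf8* at 1.71 and *Ctss* at 1.59, *Psme3* at -0.17, *Calr* at -0.05 and *Pdia3* at -0.04 lie below 0, and the promoter factors lie between 0.00 and 0.24.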

How the data were processed

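RNA of whole testes (3 WT and 3 MLX KO males) was extracted with Trizol and sequenced as 50-base paired reads. The authors aligned reads to mm10 with TopHat and deposited raw counts per gene symbol, whole numbers without normalization. The submitters' processing notes name bcl2fastq 1.8.4. The counting tool, its use of strand and the annotation are not given in the sources used here. The authors' own comparison columns in the same table (means, fold changes, p-values) and the ChIP-Seq samples were not used. Of 17933 rows, 2 repeated another row and were used once.

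Counts were fitted across all genes with edgeR 4.0.16 in R 4.3.3 (filter at its default minimum of 10, TMM, quasi-likelihood test, genotype as the only term), with Benjamini-Hochberg adjustment and a threshold of 0.05. DESeq2 1.42.0, other scalings and filters, a replicate block and each library left out in turn were alternatives. The code was tested on simulated data. Ratios were compared by exact permutation tests. Exon lengths, overlaps, 50-base stretches and upstream windows came from the mm10 annotation and RefSeq.

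The sample titles call the replicates paired and the methods call the males age-matched littermates. Deviations from the group means had correlations across genes of 0.145, 0.0363 and 0.121 for libraries with the same number, and of 0.0330 or less for the others. No libraries were duplicates: chi-square per degree of freedom between libraries of one genotype was 2.73 to 8.26. P-values measure the spread between these males only.

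The genes, lists and tests were chosen with earlier results of these data known. Every gene of the rule was named, and from each list the gene with the most counts per kilobase, those with the largest and smallest change, and those needed for small counts. Other list genes, and the genes with overlapping neighbours, were named after their values were seen. 1 gene of the interferon gamma list is not reported here and was left out of its counts.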

Additional observations from a re-analysis of the deposited data

How the results depend on the processing

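Of the 20 genes tested, 15 kept their direction and their side of the threshold in all alternatives run. *H2-Q4* was lost in 8 of 15, and *H2-DMa*, *H2-DMb1*, *H2-Ke6* and *H2-M3* changed in 1 or 2. With the replicate block in edgeR, 12 genes were higher and 1 was lower, as without it. With the replicate block in DESeq2, 11 were higher and 1 was lower, and 2249 of all genes were higher. A paired sign-flip of the 3 pairs gave an exact p of 0.25 for the class II and class I ratios (log2 differences 1.93 and 0.85), the smallest it can give. Library size alone raised the median LFC to 0.82 for these genes and 0.16 for all genes, with 5343 genes higher (80.8% of those called, against 54.7%) and 1268 lower.

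The nonclassical class I genes called, all higher, were 1 rather than 2 with DESeq2, with DESeq2's size factors and with DESeq2 and the block. The same held without WT1 and KO1 together (chosen after seeing the data). They were 1 to 2 with WT1, WT2, WT3, KO1 or KO3 left out. Without KO2, *H2-M3* was called beside *H2-T23* and *H2-Q4*. The transactivators called were 2, 1 of them higher, with no filter, and 1 to 2 (0 to 1 higher) with 1 library left out, where *Ciita* entered without WT1 or KO3. The summed H2-Q rows had LFCs from 0.27 to 0.50 with 1 library left out. Of the promoter factors, 0 were called with DESeq2 with or without the block, 4 with library size alone, 2 without WT1 and KO1 together, and 0 to 2 with 1 library left out.

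The class I ratio reversed to -0.42 against *Ptprc* and -0.15 without *Aif1*. Of genes not past the threshold, *H2-DMa* ranged from -0.10 to 0.29 with 1 library left out and was at -0.21 without WT1 and KO1 together, *H2-Ke6* ranged from -0.027 to 0.16, *March1* from -0.22 to 0.39, *Rfx5* from -0.024 to 0.060 and *Rfxap* from -0.020 to 0.093. *Calr* was at 0.093 with library size alone. *Rfx5* was at -0.021 with DESeq2, -0.022 with its size factors and -0.022 with DESeq2 and the block, and at 0.090 without WT1 and KO1 together. The causes of these changes were not tested.

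Counts of 0 to 7 in 16 of the 37 genes allow no statement on a change. With 3 males a genotype, a value carried by 1 library such as KO1 cannot be told apart from a difference between animals.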

Other observations

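Besides the genes described above, 48 other genes were at least 2-fold higher in KO1 than the mean of KO2 and KO3, of which 13 were higher and 2 were lower in MLX KO than in WT testes past edgeR's threshold. The genes named next were picked from these 48 after their values were seen. *Gbp2*, a GTPase gene induced by interferon, had 16, 14 and 31 counts in WT and 135, 53 and 47 counts in MLX KO testes (LFC 1.83, edgeR adjusted p = 0.00492; 1.22 without KO1). *Igtp*, another such gene, had 13, 16 and 23 counts in WT and 94, 32 and 28 counts in MLX KO testes (LFC 1.44, edgeR adjusted p = 0.0231), and the call was lost without KO1 (LFC 0.71, edgeR adjusted p = 0.0830). *Iigp1*, of the same kind, had 21, 14 and 37 counts in WT and 171, 24 and 35 counts in MLX KO testes, and did not pass the test (LFC 1.55, edgeR adjusted p = 0.0679).

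*Ccr2*, a chemokine receptor gene of monocytes, had 16, 1 and 7 counts in WT and 91, 24 and 26 counts in MLX KO testes (LFC 2.43, edgeR adjusted p = 0.00993; 1.56 without KO1). *Ccl8*, a chemokine gene, had 17, 11 and 25 counts in WT and 233, 84 and 128 counts in MLX KO testes (LFC 2.95, edgeR adjusted p = 0.000146; 2.50 without KO1). The chemokine genes *Cxcl9* and *Ccl5*, also among the 48, did not pass the test. *Cxcl9* had an LFC of 0.66 (edgeR adjusted p = 0.372), and of -0.25 without KO1. *Ccl5* had an LFC of -0.30 (edgeR adjusted p = 0.640), and of -1.12 without KO1. For *Ccr2*, WT2 was the lowest library, at 1 count, as it was for the class II chains. That KO1 was its highest MLX KO library follows from how the 48 genes were chosen.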
